A study of Saccharomyces cerevisiae with 16 samples.

Results

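The 47 genes described here encode the proteins of the yeast cell wall and the enzymes that make and remodel its polysaccharides. They were taken by symbol from a table of 6692 genes, and all 47 symbols were found. They comprised 24 wall mannoproteins, 21 glucan and chitin enzymes and 2 yapsins, which are proteases of the cell surface and belong to neither class. RNAseq and ribosome footprints (Riboseq) were measured in Saccharomyces cerevisiae carrying either WT eIF4B or eIF4B without its N-terminal domain (∆ntd), to ask which mRNAs need that domain for translation with and without 3% urea. eIF4B, the product of TIF3, is an initiation factor that works with the helicase eIF4A in loading mRNA onto the small ribosomal subunit.

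Of the 8 cultures, 2 each were ∆ntd in SD with 3% urea, ∆ntd in SD, WT in SD with 3% urea, and WT in SD, grown to mid-log phase in synthetic medium with glucose and ammonium sulfate. Both strains were MATa haploids of the genotype his3∆1 leu2∆0 ura3∆0 met15∆0 with the chromosomal TIF3 deleted. Each carried a single-copy plasmid with the 4 markers HIS3, LEU2, URA3 and MET15 and with TIF3 or the ∆ntd allele, in both cases tagged with hexahistidine and under the native promoter and terminator, so the WT strain is itself a plasmid-complemented deletion. The labels call the WT strain BY4741. One RNAseq and 1 Riboseq library were made from the same extract of each culture.

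The yeast wall is a mesh of β-1,3-glucan with branches of β-1,6-glucan and a little chitin, and its outer layer is made of heavily mannosylated proteins. Most of these mannoproteins reach the wall through a GPI anchor that is trimmed and joined to β-1,6-glucan, while the Pir proteins are tied directly to β-1,3-glucan. The glucan and chitin synthases are large plasma membrane enzymes, and the glucanases and transglycosylases that cut and rejoin the chains are secreted, so all of these proteins pass through the ER.

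Many mannoproteins are built from repeats rich in serine and threonine, the residues that carry O-linked mannose. Serine and threonine codons made up a median of 31.1% of the codons of the 24 mannoprotein genes and 21.6% in the 21 enzyme genes, against 13.8% over the 6007 annotated genes of the table. The median coding length was 997.5 nt for mannoproteins, 1524 nt for enzymes and 1197 nt for all annotated genes. Repeats bear on the counts, since the authors counted only reads that mapped to 1 place, and a footprint is about as long as a window of 28 nt. The windows below are the most repeated 28 nt of 4 mannoprotein genes, read 5′ to 3′ on the coding strand of the R64 genome (RefSeq annotation), and capitals mark whole in-frame serine or threonine codons.
FLO11: AGCTCTACTACTgaaAGCTCTTCTgctc
FLO1: atcagaACAccaACAACAgccACTACTg
TIR1: TCTTCTTCTgctgccccaAGCTCTTCTg
SED1: gctccaACCACTgctatcccaACTaacg
The FLO11 window (chromosome IX, 392649 to 392676, minus strand) occurs 17 times in that gene. The FLO1 window (chromosome I, 204471 to 204498, plus strand) occurs 9 times in FLO1 and 9 times, letter for letter, in FLO9. The TIR1 window (chromosome V, 175587 to 175614, plus strand) occurs 4 times in TIR1 and the SED1 window (chromosome IV, 601000 to 601027, plus strand) occurs 2 times in SED1. The 3 windows that follow are the most repeated 28 nt of the Pir genes PIR1, PIR3 and HSP150, cut at that length rather than at the repeat unit. Capitals mark the longest run of letters that the 3 windows share.
PIR1: tctcaaattggtgacGGTCAAatccaag
PIR3: caaataactgacGGTCAAgttcaagctg
HSP150: tctcaaatcggtgatGGTCAAgttcaag
They lie at chromosome XI, 142591 to 142618 (minus strand) for PIR1, chromosome XI, 144689 to 144716 (plus strand) for PIR3 and chromosome X, 120950 to 120977 (plus strand) for HSP150, and occur 5, 3 and 4 times in their own gene. Windows found more than once in the coding sequences made up 27.6% of PIR1, 22.8% of PIR3, 18.2% of HSP150, 17.4% of SED1, 38.1% of FLO11, 65.6% of FLO1 and 67.6% of FLO9. Reads from such windows have no single place, so the levels of these genes may be understated, to an extent that was not tested. Changes compare each gene with itself across cultures. The paralogous enzymes share little at this scale, with 0.66% of FKS1 windows and 0.65% of GSC2 windows found elsewhere.

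Between 3067506 and 17380262 footprints were counted per Riboseq library and between 1888481 and 5169546 reads per RNAseq library. The 2 Riboseq libraries of ∆ntd with urea differed from each other by 81.55 times the counting noise (chi-square per degree of freedom over genes), against 2.2 to 9.13 times for the other Riboseq pairs and 1.61 to 2.32 times for the RNAseq pairs. TIF3 had 1950 to 3288 CPM in RNAseq and 2411 to 5211 CPM in Riboseq, and since whole-gene counts do not resolve the deleted codons, this does not check which allele a library carries. The 6 a-specific genes summed to 1843 to 2715 CPM of RNA in each library and the 4 alpha-specific genes to 18.5 to 31.6 CPM, most of it from SAG1. CPM are library-size scaled counts after normalisation by edgeR's TMM method, TE (translation efficiency) is the ratio of Riboseq to RNAseq CPM of the same culture, and a change is a fitted log2 difference given with its standard error and an adjusted p (edgeR, quasi-likelihood F, Benjamini-Hochberg over every gene tested), called at 0.05. Since each group is 2 cultures, permuting them exactly for 1 gene gives no p below 0.33.

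Of the 47 genes, 43 passed the filter on low counts in RNAseq, 40 in Riboseq and 39 in both. All 21 enzymes and both yapsins passed both filters, and so did 16 of the 24 mannoproteins. TIR1 passed in Riboseq only, FLO1, FLO5, FLO10 and FLO11 passed in RNAseq only, and TIR4, DAN1 and FLO9 passed in neither. The missing genes are anaerobic or cold-shock wall proteins and flocculins. DAN1, an anaerobic mannoprotein, had no more than 1 count in any library of either assay, and FLO9 had at most 4.

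The levels of the detected genes spanned a wide range. Per kilobase of coding sequence in WT in SD, the 3 mannoproteins with the highest footprint level were CCW12, CWP2 and HSP150, and the 3 enzymes were BGL2, GAS1 and SCW4. CCW12, a main structural GPI protein of the wall, had 18336 ± 448 footprint CPM per kb (SD, n = 2 cultures) and CWP2, a second GPI protein, had 13163 ± 564. HSP150, a Pir protein, followed at 3199 ± 129, and BGL2, an abundant β-1,3-glucan transferase, stood at 2162 ± 234 footprint CPM per kb. GAS1, the main β-1,3-glucanosyltransferase, had 1233 ± 70.7 and SCW4, a glucanase-like wall protein, 1014 ± 20.3. The spreads of HSP150 and CWP2 did not touch, and neither did those of GAS1 and SCW4. The lowest enzymes were SKN1 (15.4 ± 1.07), a β-1,6-glucan gene, and the chitin synthase CHS3 (25.6 ± 0.26). The TE levels of the 2 classes overlapped. The group means in WT in SD ran from 0.26 for SKN1 to 1.91 for CRH1 among the 21 enzymes, with a median of 0.83, and from 0.361 for TIR2 to 4.06 for CCW14 among 16 mannoproteins, with a median of 1.79.

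Mannoproteins took a larger share of the footprints in ∆ntd than in WT. Their 24 genes held 3.45% and 3.11% of all Riboseq counts in ∆ntd with urea, against 1.88% and 1.89% in WT with urea. Without urea the shares were 3.57% and 3.21% in ∆ntd, against 2.53% and 2.68% in WT. In RNAseq the mannoproteins held 1.43% and 1.61% of reads in ∆ntd with urea and 1.74% and 1.82% in ∆ntd in SD, against 0.85% and 0.83% in WT with urea and 1.16% and 1.15% in WT in SD. The cultures of ∆ntd and WT did not overlap in either medium or assay. Most of the footprint difference with urea lay in 2 genes, CCW12 and CWP2, which were singled out after their values were seen. Together they held 2.14% and 2.19% of the footprints in ∆ntd with urea, against 0.85% and 0.82% in WT with urea, and 1.80% and 1.51% in ∆ntd in SD, against 1.19% and 1.20% in WT in SD. The other 22 genes held 1.31% and 0.93% in ∆ntd with urea, against 1.04% and 1.07% in WT with urea, so without CCW12 and CWP2 the strains overlapped. In SD the other 22 held 1.77% and 1.69% in ∆ntd, against 1.34% and 1.48% in WT, and did not overlap. The enzymes held 1.17% to 1.47% of the Riboseq counts over all 8 cultures, and the strains overlapped in both media. In RNAseq the share of the enzymes was also higher in ∆ntd, at 1.25% and 1.33% with urea, against 1.13% and 1.17% in WT with urea, and at 1.67% and 1.68% in ∆ntd in SD, against 1.53% and 1.53% in WT in SD. A share is a count scaled by the library total. On that scale the median RNA change of all genes in ∆ntd over WT was 0.35 with urea and 0.31 without, and 50.3% and 46.5% of all genes were called higher, so a larger RNA share in ∆ntd was common to many genes.

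**Figure D1:**
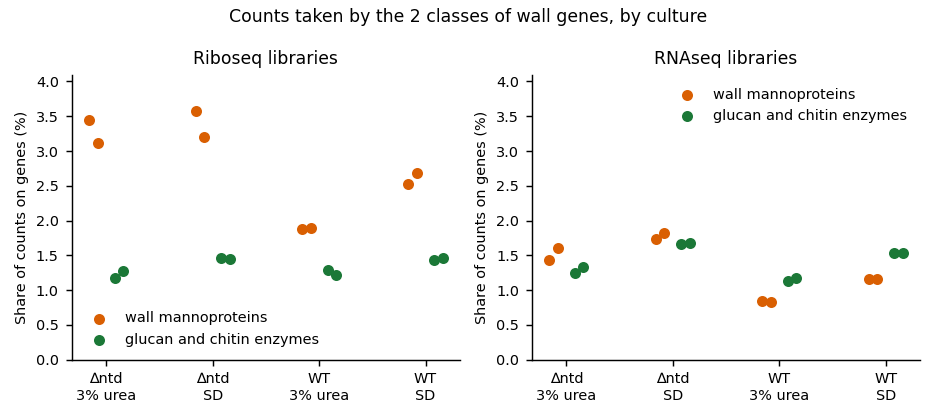
Share of the counts on genes (%) taken by the 24 wall mannoproteins (orange) and the 21 glucan and chitin enzymes (green) in Riboseq libraries (left panel) and RNAseq libraries (right panel), with 1 point per culture and the 4 groups along the horizontal axis. The mannoprotein share of footprints was 3.11% to 3.57% in ∆ntd and 1.88% to 2.68% in WT.

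Most wall mRNAs were lower with urea than without it in both strains. In ∆ntd, 25 of 43 mRNAs fell in 3% urea and 3 rose, where 12.8% of the 5486 genes tested fell and 13.4% rose (26.2% in all). In WT, 29 of 43 fell and 3 rose, where 12.4% of all genes fell and 16.1% rose (28.5% in all). The same 22 mRNAs fell in both strains, which is 88% of those that fell in ∆ntd and 75.9% of those that fell in WT. Over all genes tested, 323 mRNAs fell in both strains, which is 45.9% and 47.5% of the mRNAs that fell in ∆ntd and in WT. Both classes took part. In ∆ntd 9 of 20 mannoprotein and 15 of 21 enzyme mRNAs fell, and in WT 12 of 20 and 16 of 21. The medians were -0.44 and -0.35 for mannoproteins and -0.31 and -0.26 for enzymes in ∆ntd and in WT, beside -0.004 and 0.004 for all genes.

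Among mannoproteins the largest falls in ∆ntd were those of YGP1 and TIP1, and in WT those of PIR3 and SPI1. YGP1, a secreted glycoprotein induced by nutrient limitation, had 320.3 and 332 CPM of RNA in ∆ntd with urea, against 849 and 811 CPM in ∆ntd in SD, a change of -1.35 (standard error 0.07, adjusted p = 1.09e-16). TIP1, a GPI mannoprotein induced by cold shock, had 88.0 and 108 CPM with urea, against 187 and 201 CPM in SD, a change of -0.99 (standard error 0.10, adjusted p = 4.27e-09). These gaps were several times the spread between cultures. In WT, PIR3 RNA stood at 10.1 and 11.5 CPM with urea, against 33.7 and 34.3 CPM in SD (log2 change -1.63, standard error 0.19, adjusted p = 2.55e-08), and SPI1 RNA at 19.2 and 18.1 CPM with urea, against 37.2 and 34.0 CPM in SD (log2 change -0.94, standard error 0.17, adjusted p = 5.23e-05). PIR3 encodes a Pir protein and SPI1 a GPI protein induced by weak acids. In ∆ntd neither passed the test, with PIR3 at 37.8 and 40.9 CPM with urea, against 46.4 and 45.4 CPM in SD, and SPI1 at 60.0 and 73.0 CPM, against 80.2 and 69.7 CPM.

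GSC2 had the largest fall among enzymes in both strains. GSC2 encodes the alternative catalytic subunit of β-1,3-glucan synthase, which is induced by stress. Its RNA stood at 421 and 467 CPM in ∆ntd with urea, against 851 and 926 CPM in ∆ntd in SD (log2 change -1.0, standard error 0.07, adjusted p = 2.61e-13), and at 301 and 300.0 CPM in WT with urea, against 917 and 898 CPM in WT in SD (log2 change -1.60, standard error 0.07, adjusted p = 7.32e-19). The fall was smaller in ∆ntd, with a strain difference of 0.59 (standard error 0.09, adjusted p = 4.28e-05). SIM1, of the SUN family of wall proteins, was next in ∆ntd at 207 and 249 CPM with urea, against 382 and 364 CPM in SD (log2 change -0.72, standard error 0.09, adjusted p = 1.40e-07). In WT the next was SCW10, a glucanase-like wall protein, at 158 and 159 CPM with urea, against 249 and 266 CPM in SD (log2 change -0.70, standard error 0.08, adjusted p = 2.28e-08).

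A few mRNAs rose in urea. UTR2, which encodes a transglycosylase that joins chitin to glucan, rose in both strains, to 353 and 404 CPM in ∆ntd with urea, against 279 and 290.2 CPM in ∆ntd in SD (log2 change 0.41, standard error 0.08, adjusted p = 0.000101), and to 568 and 614 CPM in WT with urea, against 306 and 289 CPM in WT in SD (log2 change 0.99, standard error 0.07, adjusted p = 3.73e-13). Its rise was smaller in ∆ntd, by -0.58 (standard error 0.10, adjusted p = 0.000183). The yapsin MKC7 also rose in both, by 0.32 in ∆ntd (adjusted p = 0.0454) and by 0.66 in WT (adjusted p = 6.44e-06). SCW4 rose slightly in ∆ntd, to 1108 and 1338 CPM with urea, against 1050.0 and 1034 CPM in SD (log2 change 0.23, standard error 0.07, adjusted p = 0.0172), and fell in WT to 704 and 797 CPM, against 854 and 895 CPM (log2 change -0.22, standard error 0.07, adjusted p = 0.0221). CWP1, a GPI protein of the wall, was the third to rise in WT, to 172 and 194 CPM, against 151 and 155 CPM (log2 change 0.26, standard error 0.09, adjusted p = 0.0194), and it fell in ∆ntd to 64.1 and 81.8 CPM, against 116 and 110.5 CPM (log2 change -0.65, standard error 0.12, adjusted p = 5.97e-05). Scaling by library totals alone moved the median of all genes by -0.08 in ∆ntd and -0.12 in WT and left 27 and 30 wall mRNAs lower in urea, where 18% and 21.7% of all genes were lower. Leaving out any 1 culture left 22 to 28 calls in ∆ntd and 24 to 32 in WT.

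**Figure D2:**
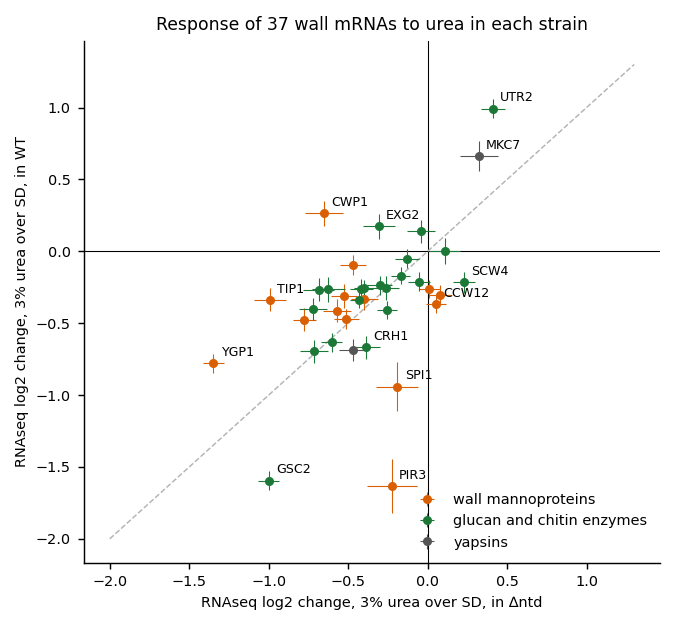
RNAseq log2 change in 3% urea over SD in ∆ntd (horizontal axis) and in WT (vertical axis) for 37 wall genes, with standard errors as bars, zero lines, and a dashed line of equal change. Most points lie below zero on both axes, UTR2 and MKC7 lie above zero on both, and PIR3 (-0.23 in ∆ntd, -1.63 in WT) lies far below the dashed line. The 6 tested genes with a standard error over 0.4 (TIR2, TIR3 and 4 flocculins) are left out.

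The strains differed in wall mRNAs with and without urea. With urea, 12 of 43 wall mRNAs were higher in ∆ntd than in WT and 17 were lower, where 21.5% of all genes tested were higher and 22.5% lower (43.9% in all). The mannoproteins were split 8 higher and 5 lower of 20, and the enzymes 4 higher and 11 lower of 21. Without urea 12 were higher and 13 lower (17.5% and 19.3% of all genes, 36.8% together), with 9 higher and 6 lower mannoproteins and 3 higher and 6 lower enzymes. The 9 include FLO1 and FLO11, flocculins with very few reads. The class medians were 0.41 for mannoproteins and -0.18 for enzymes with urea, and 0.37 and -0.11 without, beside 0.03 and 0.02 for all genes. Counted by library totals, which moved the median of all genes by 0.33 with urea and 0.28 without, 20 wall mRNAs were higher and 7 lower with urea and 25 were higher and 1 lower without (50.3% and 9.46% of all genes with urea, 46.5% and 7.86% without), so that the enzymes turned to 9 higher and 4 lower with urea and 12 higher and 1 lower without. Directions here are relative to the bulk of mRNAs.

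The 2 mannoprotein mRNAs with the largest excess in ∆ntd with urea were PIR3 and SPI1. PIR3 had 37.8 and 40.9 CPM in ∆ntd with urea, against 10.1 and 11.5 CPM in WT with urea (log2 change 1.84, standard error 0.19, adjusted p = 1.73e-09). SPI1 had 60.0 and 73.0 CPM in ∆ntd with urea, against 19.2 and 18.1 CPM in WT with urea (log2 change 1.83, standard error 0.16, adjusted p = 2.64e-11). In both, the WT cultures with urea were the lowest of the 4 groups. SED1, a GPI protein abundant in stationary phase, had 1000.4 and 1019 CPM of RNA in ∆ntd with urea, against 504 and 383 CPM in WT with urea (log2 change 1.20, standard error 0.08, adjusted p = 3.22e-14), and 1719.8 and 1736 CPM in ∆ntd in SD, against 612 and 612 CPM in WT in SD (log2 change 1.50, standard error 0.08, adjusted p = 1.55e-16). YGP1 RNA was also higher in ∆ntd in both media, by 0.41 with urea and 0.98 without (adjusted p = 1.35e-05 and 2.92e-14).

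The abundant GPI genes CCW12, CWP2 and CCW14 had more RNA in ∆ntd in both media. CCW12 had 6708 and 7489 CPM in ∆ntd with urea, against 4008 and 3705 CPM in WT with urea (log2 change 0.88, standard error 0.06, adjusted p = 1.65e-13). CWP2 differed by 0.69 (standard error 0.07, adjusted p = 6.88e-10) with urea, and CCW14, a GPI protein of the inner wall layer, by 0.51 (standard error 0.09, adjusted p = 1.17e-05). Without urea these differences were 0.46, 0.31 and 0.72, with adjusted p of 3.18e-07, 0.000532 and 8.36e-09. The flocculins FLO1 and FLO11 had the 2 largest excesses in ∆ntd without urea, on very few reads. FLO1 had 15 and 7 reads in ∆ntd in SD, against 4 and 3 reads in WT in SD (log2 change 1.92, standard error 0.65, adjusted p = 0.0196), and FLO11 had 11 and 13 reads, against 3 and 7 reads (log2 change 1.55, standard error 0.62, adjusted p = 0.0493). FLO11 had 1 to 7 reads in the libraries of the other groups, so it passed the filter on low counts only through the group called higher. A filter of 10 counts in every library dropped both genes and left 10 higher and 13 lower wall mRNAs of 39. The FLO1 count is uncertain because of the stretches it shares with FLO9 and FLO5. Flocculins are large adhesins with repeats, and at most 5 footprints were counted on any of the 5 genes in any library.

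CWP1 and TIP1 stood at the other end in both media. CWP1 had 64.1 and 81.8 CPM of RNA in ∆ntd with urea, against 172 and 194 CPM in WT with urea (log2 change -1.35, standard error 0.10, adjusted p = 1.81e-12), and 116 and 110.5 CPM in ∆ntd in SD, against 151 and 155 CPM in WT in SD (log2 change -0.43, standard error 0.10, adjusted p = 0.000731). TIP1 had 88.0 and 108 CPM in ∆ntd with urea, against 188 and 213 CPM in WT with urea (log2 change -1.05, standard error 0.10, adjusted p = 1.02e-10), and 187 and 201 CPM in ∆ntd in SD, against 265 and 244 CPM in WT in SD (log2 change -0.40, standard error 0.08, adjusted p = 0.000287). The cultures of the strains did not overlap for either gene in either medium.

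Among enzymes, SCW4 and GSC2 RNA were the most raised in ∆ntd with urea and GAS3 and SIM1 the most lowered. SCW4 had 1108 and 1338 CPM in ∆ntd with urea, against 704 and 797 CPM in WT with urea (log2 change 0.70, standard error 0.07, adjusted p = 1.31e-09). GSC2 had 421 and 467 CPM in ∆ntd with urea, against 301 and 300.0 CPM in WT with urea (log2 change 0.56, standard error 0.07, adjusted p = 7.11e-08). GAS3, of the glucanosyltransferase family, had 96.6 and 83.3 CPM in ∆ntd with urea, against 168 and 168 CPM in WT with urea (log2 change -0.89, standard error 0.09, adjusted p = 1.65e-09). The same gene was lower in ∆ntd without urea, at 140.2 and 152 CPM, against 199 and 204 CPM in WT in SD (log2 change -0.47, standard error 0.08, adjusted p = 3.16e-05). SIM1 had 207 and 249 CPM in ∆ntd with urea, against 372 and 449 CPM in WT with urea (log2 change -0.86, standard error 0.08, adjusted p = 4.61e-10), and 382 and 364 CPM in ∆ntd in SD, against 544 and 547 CPM in WT in SD (log2 change -0.54, standard error 0.08, adjusted p = 1.10e-06). The 2 largest excesses in ∆ntd without urea were those of SKN1 and CHS1. SKN1 had 179.7 and 186 CPM in ∆ntd in SD, against 137 and 138 CPM in WT in SD (log2 change 0.41, standard error 0.08, adjusted p = 0.000166). CHS1, the chitin synthase that repairs the wall when daughter cells separate, had 597 and 616 CPM, against 494 and 487 CPM (log2 change 0.31, standard error 0.06, adjusted p = 0.000265).

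With urea, every mannoprotein that passed the TE test was higher in ∆ntd on the TMM scale, 1 of them (CWP1) keeping its call when counted by library totals, while enzymes passed in both directions. The ∆ntd strain had the higher TE for 11 of 39 genes and the lower for 5, where 15.3% of the 5251 genes tested were higher and 10.1% lower (25.4% in all). Of the 16 mannoproteins 7 were higher and none lower, namely CWP1, CCW12, CCW14, TIP1, CWP2, PST1 and PIR1, with a class median of 0.46 beside 0.04 for all genes. Of the 21 enzymes 4 were higher (UTH1, BGL2, GAS5 and SIM1) and 5 lower (CHS1, FKS1, EXG2, SCW10 and GSC2), with a class median of 0.03. Both yapsins were within 0.04 of 0. The classes were not tested against each other. Directions of footprints and TE, like those of RNA, are relative to the bulk of genes, and the counts give no absolute level of translation. The paper reported a lower ratio of polysomes to monosomes in ∆ntd, and a further fall with urea.

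Counted by library totals, which moved the median TE change of all genes by -0.59, 1 mannoprotein was higher in ∆ntd and 2 were lower (SED1 and YGP1). On that scale 1 enzyme was higher (UTH1) and 13 lower, and both yapsins were lower. Of all genes 4.09% were higher and 40.5% lower. In a fit of the urea libraries alone, 3 of the 11 rises kept their call (CCW12, CWP1 and UTH1), and all 5 falls did. Without WT urea replicate 2 the calls were 2 higher (CCW12 and UTH1) and 5 lower, and without WT urea replicate 1 they were 6 higher and 4 lower.

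**Figure D3:**
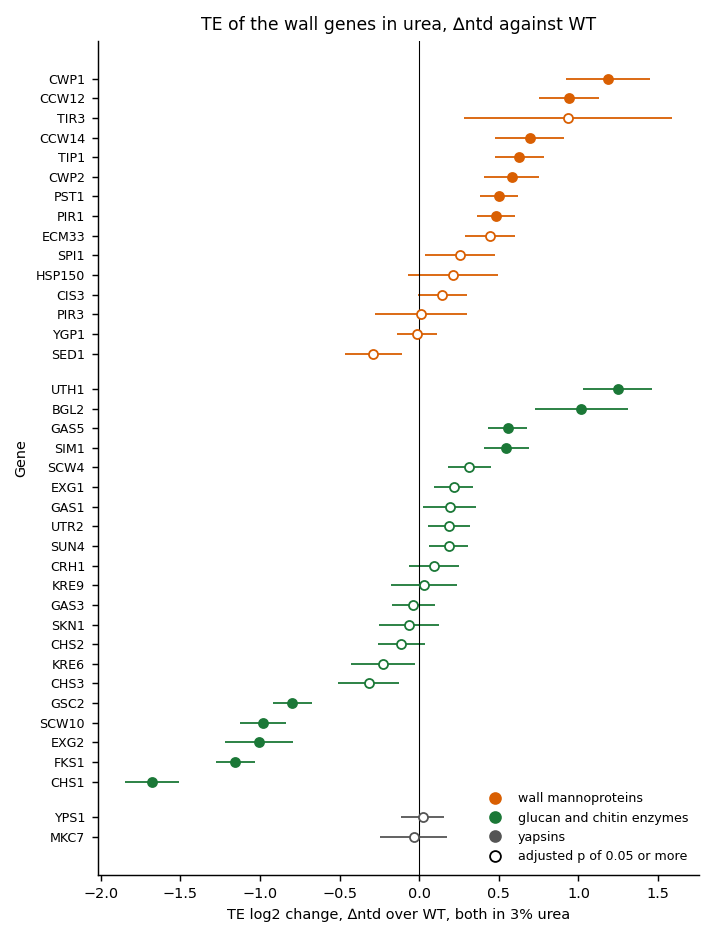
TE log2 change of ∆ntd over WT, both in 3% urea (horizontal axis), for 38 wall genes in rows grouped as mannoproteins (orange), glucan and chitin enzymes (green) and yapsins (grey), with standard errors as bars, on the TMM scale. Filled points passed an adjusted p of 0.05. The mannoproteins run from -0.29 (SED1) to 1.19 (CWP1) and the enzymes from -1.68 (CHS1) to 1.25 (UTH1), and TIR2, with a standard error of 1.03, is left out.

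CWP1 and CCW12 had the largest TE rises among mannoproteins. The TE of CWP1 was 4.28 and 5.60 in ∆ntd with urea, against 2.26 and 2.18 in WT with urea (log2 change 1.19, standard error 0.26, adjusted p = 0.00483). Its RNA was lower in ∆ntd, and its footprints were 275 and 458 CPM in ∆ntd with urea, against 387 and 423 CPM in WT with urea, so 1 ∆ntd culture lay below both WT cultures and the other above them, and the footprint difference did not pass the test (adjusted p = 0.621). TIP1 had the same combination of less RNA and higher TE. Its TE was 4.43 and 3.81 in ∆ntd with urea, against 2.99 and 2.37 in WT with urea (log2 change 0.63, standard error 0.15, adjusted p = 0.00871), and its footprints were lower, at 389.9 and 412 CPM, against 562 and 504 CPM (log2 change -0.41, standard error 0.11, adjusted p = 0.0203).

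In CCW12 both RNA and TE were higher in ∆ntd with urea. Its TE was 2.44 and 3.05 in ∆ntd with urea, against 1.40 and 1.47 in WT with urea (log2 change 0.94, standard error 0.19, adjusted p = 0.00249). Its footprints were 16346 and 22844 CPM in ∆ntd with urea, against 5628 and 5448 CPM in WT with urea (log2 change 1.82, standard error 0.18, adjusted p = 0.000376). CWP2 followed with footprints of 7402 and 6082 CPM, against 2768 and 2809.8 CPM (log2 change 1.27, standard error 0.15, adjusted p = 0.000737), and a TE of 3.28 and 2.18, against 1.83 and 1.74 (log2 change 0.58, standard error 0.17, adjusted p = 0.0249). The TE of CCW14 was 5.44 and 7.33 in ∆ntd with urea, against 3.78 and 4.22 in WT with urea (log2 change 0.69, standard error 0.21, adjusted p = 0.0299), with footprints of 913 and 1417 CPM, against 498 and 514 CPM (log2 change 1.20, standard error 0.19, adjusted p = 0.00245). In all 3 the ∆ntd cultures lay above the WT cultures, and the 2 ∆ntd cultures differed from each other by more than the WT cultures did. PST1, a GPI protein induced by wall damage, and PIR1 had smaller TE rises of 0.50 and 0.48 (adjusted p = 0.00821 and 0.0101), which stood at -0.09 and -0.12 when counted by library totals.

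The largest footprint gains of mannoproteins came without a called change in TE. SPI1 had 146 and 116 footprint CPM in ∆ntd with urea, against 32.4 and 29.0 CPM in WT with urea (log2 change 2.09, standard error 0.15, adjusted p = 0.000111), with a TE of 2.44 and 1.58, against 1.69 and 1.61. PIR3 had 77.8 and 54.6 footprint CPM, against 19.8 and 16.5 CPM (log2 change 1.86, standard error 0.20, adjusted p = 0.00055), with a TE of 2.06 and 1.33, against 1.96 and 1.43. The RNA changes of both genes, given above, were of the size of their footprint changes. The footprints of TIR1, a cold-shock and anaerobic GPI protein, were lower at 2.79 and 0.730 CPM in ∆ntd with urea, against 4.95 and 6.93 CPM in WT with urea (log2 change -1.55, standard error 0.50, adjusted p = 0.0455). These rest on 26 and 4 footprints, against 24 and 21 in the smaller WT libraries, and on 0 to 5 RNA reads in any library. With urea, 12 of 40 wall genes had more footprints in ∆ntd than in WT and 10 had fewer, where 17.9% and 15.1% of the 5286 genes tested did (32.9% in all). Mannoproteins were 8 higher and 2 lower, and enzymes 4 higher and 8 lower. In a fit of the urea libraries alone 8 were higher and 6 lower, and by library totals, which moved the median of all genes by -0.26, 9 were higher and 18 lower (10.1% and 25.5% of all genes).

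The 5 wall genes with lower TE in ∆ntd with urea were 3 synthases and 2 glucanase-family genes. CHS1 had a TE of 0.128 and 0.0894 in ∆ntd with urea, against 0.335 and 0.371 in WT with urea (log2 change -1.68, standard error 0.17, adjusted p = 2.77e-05), and footprints of 51.1 and 35.8 CPM, against 111 and 112 CPM (log2 change -1.35, standard error 0.16, adjusted p = 0.000822), although its RNA was higher in ∆ntd (0.34, adjusted p = 0.000152). FKS1, the main catalytic subunit of β-1,3-glucan synthase, had a TE of 0.211 and 0.214 in ∆ntd with urea, against 0.502 and 0.444 in WT with urea (log2 change -1.15, standard error 0.12, adjusted p = 3.79e-05). Its footprints were 527 and 572 CPM, against 1657 and 1480.4 CPM (log2 change -1.51, standard error 0.11, adjusted p = 0.000111). GSC2, its alternative, had a TE of 0.229 and 0.193, against 0.377 and 0.352 (log2 change -0.80, standard error 0.12, adjusted p = 0.000414). Its RNA was higher in ∆ntd, as given above, and its footprints were 96.4 and 90.1 CPM in ∆ntd with urea, against 114 and 106 CPM in WT with urea, a difference that did not pass the test (adjusted p = 0.106).

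EXG2, a GPI-anchored exo-β-1,3-glucanase, had a TE of 0.240 and 0.167 in ∆ntd with urea, against 0.464 and 0.358 in WT with urea (log2 change -1.01, standard error 0.21, adjusted p = 0.00353), and footprints of 22.3 and 15.9 CPM, against 69.6 and 52.8 CPM (log2 change -1.67, standard error 0.19, adjusted p = 0.00076), the largest footprint loss among enzymes. SCW10 had a TE of 1.17 and 1.08, against 2.26 and 2.16 (log2 change -0.98, standard error 0.15, adjusted p = 0.000336), on RNA levels that overlapped between the strains. In all 5 genes both ∆ntd cultures lay below both WT cultures, and FKS1, GSC2, SCW10 and CHS1 kept their calls with each of the 8 cultures left out in turn. The EXG2 call was lost without WT urea replicate 1.

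UTH1 and BGL2 were the enzyme-class genes with the largest TE rises. UTH1, a SUN family gene, had a TE of 3.06 and 3.08 in ∆ntd with urea, against 1.48 and 1.16 in WT with urea (log2 change 1.25, standard error 0.22, adjusted p = 0.00104), and footprints of 1705 and 2306 CPM, against 1004 and 1018 CPM (log2 change 0.99, standard error 0.15, adjusted p = 0.00205). BGL2 had a TE of 2.25 and 4.38, against 1.72 and 1.58 (log2 change 1.02, standard error 0.29, adjusted p = 0.0208), and footprints of 2484 and 4936 CPM, against 1751 and 1706 CPM (log2 change 1.10, standard error 0.27, adjusted p = 0.0176). Its 2 ∆ntd cultures with urea differed by nearly as much as the strains did. The TE and footprint calls of BGL2 were lost in the fit of the urea libraries alone and without either culture of WT with urea. The TE call was also lost by library totals. With 1 culture left out the BGL2 changes went down to 0.44 in TE and 0.51 in footprints. GAS5, a glucanosyltransferase, and SIM1 rose in TE by 0.56 and 0.55 (adjusted p = 0.00476 and 0.0123), and stood at -0.04 and -0.05 when counted by library totals. SCW4 gained footprints, at 2362 and 2525 CPM in ∆ntd with urea, against 1172 and 1240.3 CPM in WT with urea (log2 change 1.02, standard error 0.10, adjusted p = 0.00036), with an RNA gain of 0.70.

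**Figure D4:**
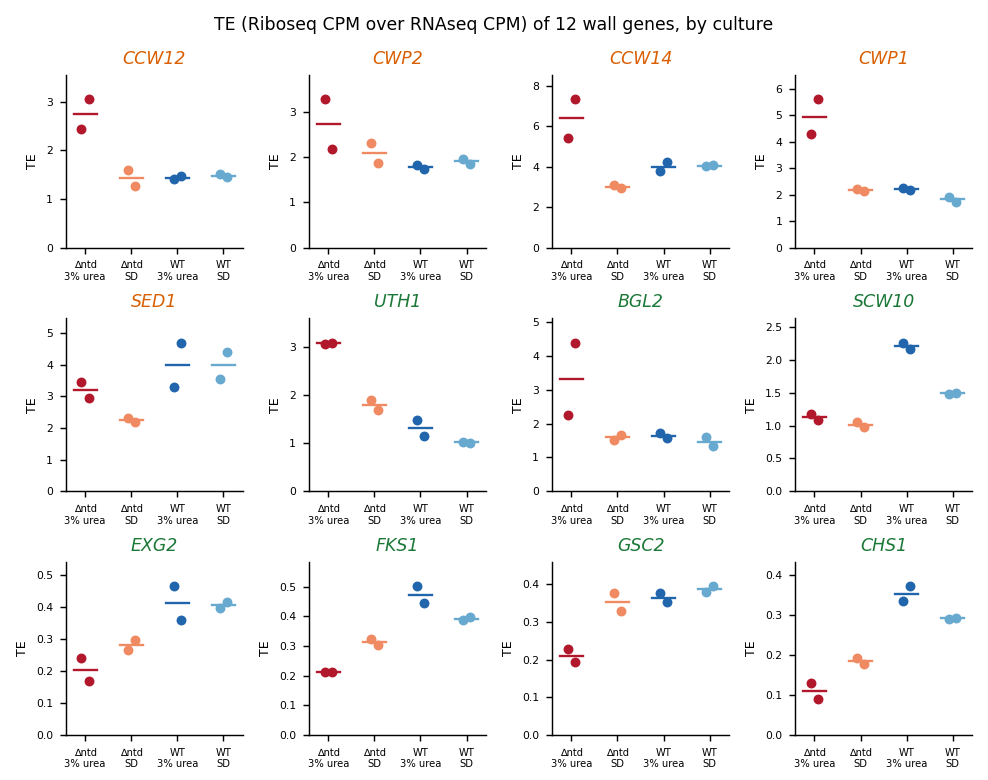
TE (Riboseq CPM over RNAseq CPM, vertical axis) of 12 wall genes, with 1 point per culture, a bar at the mean of the 2 cultures, and the 4 groups along the horizontal axis. Gene names are in orange for mannoproteins and in green for enzymes. The TE of FKS1 was near 0.21 in both ∆ntd cultures with urea and at 0.50 and 0.44 in the WT cultures with urea, while the 2 ∆ntd cultures of BGL2 with urea stood far apart, at 2.25 and 4.38.

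Without urea few wall genes differed in TE between the strains. One of 39 genes was higher in ∆ntd (UTH1) and 3 were lower (SED1, SCW10 and CHS1), where 3.2% of all genes were higher and 3.29% lower (6.49% in all). UTH1 had a TE of 1.90 and 1.69 in ∆ntd in SD, against 1.02 and 1.01 in WT in SD (log2 change 0.82, standard error 0.22, adjusted p = 0.0382). CHS1 had a TE of 0.192 and 0.177, against 0.289 and 0.293 (log2 change -0.66, standard error 0.16, adjusted p = 0.0241), and SCW10 of 1.05 and 0.978, against 1.49 and 1.50 (log2 change -0.56, standard error 0.14, adjusted p = 0.0296). These 3 genes also passed with urea, in the same direction, and SED1 did not. Its TE was 2.30 and 2.20 in ∆ntd in SD, against 3.56 and 4.41 in WT in SD (log2 change -0.82, standard error 0.18, adjusted p = 0.014), beside the RNA gain of 1.50 given above, and its footprints were 3962 and 3826 CPM in ∆ntd in SD, against 2178 and 2694 CPM in WT in SD (log2 change 0.68, standard error 0.14, adjusted p = 0.0221). These 4 calls were all lost without either culture of ∆ntd or WT in SD, and without either culture of WT with urea only SED1 kept its call. In a fit of the SD libraries alone, or without either culture of ∆ntd with urea, 6 genes were higher and 6 lower, and by library totals, which moved the median of all genes by -0.23, none were higher and 5 lower (1.56% and 9.35% of all genes).

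Footprints without urea showed 4 higher and 4 lower wall genes of 40, where 3.67% and 5.54% of all genes were so (9.21% in all). The 4 higher genes were mannoproteins, SPI1, TIR3, YGP1 and SED1, and the 4 lower genes were enzymes, EXG2, FKS1, GAS3 and SCW10. SPI1 had 128 and 117 CPM in ∆ntd in SD, against 48.4 and 48.6 CPM in WT in SD (log2 change 1.34, standard error 0.13, adjusted p = 0.00138). TIR3, an anaerobic GPI protein, had 77 and 111 footprints in ∆ntd in SD, against 46 and 40 in WT in SD, which is 7.35 and 7.89 CPM, against 2.51 and 2.53 CPM (log2 change 1.60, standard error 0.32, adjusted p = 0.0227). EXG2 had 32.6 and 32.2 CPM in ∆ntd in SD, against 51.2 and 55.9 CPM in WT in SD (log2 change -0.72, standard error 0.17, adjusted p = 0.0408), and FKS1 had 1107 and 1073 CPM, against 1591 and 1699.7 CPM (log2 change -0.59, standard error 0.11, adjusted p = 0.0162). By library totals 7 were higher and 3 lower (4.09% and 4.24% of all genes). The higher genes were then 5 mannoproteins and 2 enzymes, and the 3 lower genes were enzymes. In a fit of the SD libraries alone, or without either culture of ∆ntd with urea, 13 genes were higher and 11 lower, without either culture of WT with urea 2 were higher and 1 lower, and without any 1 culture in SD 1 was higher and none lower.

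With the spread estimated over all groups, 9 wall genes were higher and 3 lower in TE with urea in ∆ntd, and none passed in WT. Fits of the libraries of 1 strain alone turned this round, with 0 calls in ∆ntd and 7 in WT. Counts of calls do not test a difference between the strains, and that test is given below. In ∆ntd, 7.29% of all genes were higher and 4.27% lower (11.6% in all). In WT 0.114% were higher and 0.019% lower (0.133% in all), with 531 of 5251 genes at an unadjusted p under 0.05, and 1 wall gene (SCW10) was called by DESeq2, 7 in a fit of the WT libraries alone and 5 by limma voom with group-wise variances, all higher. Without either culture of ∆ntd with urea, 8 wall genes were higher in WT with urea. In ∆ntd the largest rises were those of CWP1 and CCW14 among mannoproteins and of BGL2 and UTH1 among enzymes. The TE of CWP1 was 4.28 and 5.60 in ∆ntd with urea, against 2.21 and 2.12 in ∆ntd in SD (log2 change 1.22, standard error 0.27, adjusted p = 0.0135), and that of CCW14 was 5.44 and 7.33, against 3.10 and 2.93 (log2 change 1.10, standard error 0.21, adjusted p = 0.00754). BGL2 changed by 1.07 (standard error 0.29, adjusted p = 0.0334) and UTH1 by 0.78 (standard error 0.22, adjusted p = 0.0356). CCW12 rose by 0.95, GAS5 by 0.60, SIM1 by 0.60, SCW4 by 0.48 and PST1 by 0.44, with adjusted p of 0.00864 to 0.0368.

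The 3 falls in ∆ntd were CHS1, GSC2 and FKS1. The TE of CHS1 was 0.128 and 0.0894 in ∆ntd with urea, against 0.192 and 0.177 in ∆ntd in SD (log2 change -0.74, standard error 0.16, adjusted p = 0.014). That of GSC2 was 0.229 and 0.193, against 0.376 and 0.328 (log2 change -0.74, standard error 0.12, adjusted p = 0.0027), and that of FKS1 0.211 and 0.214, against 0.323 and 0.304 (log2 change -0.56, standard error 0.12, adjusted p = 0.0122). In WT the TE of FKS1 was 0.502 and 0.444 with urea, against 0.386 and 0.399 in SD, and the change did not pass the test (adjusted p = 0.472). All 12 calls in ∆ntd were lost in a fit of the ∆ntd libraries alone and without ∆ntd SD replicate 1, and without ∆ntd SD replicate 2 GSC2 alone kept its call. Without either culture of WT in SD 4 were higher and 3 lower, and without ∆ntd urea replicate 1 or 2 there were 14 higher and 9 lower or 17 higher and 4 lower. Counted by library totals, which moved the median of all genes by -0.35, 4 wall genes were higher and 6 lower (2.38% and 17% of all genes).

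Footprints in urea followed the RNA in part. In ∆ntd 4 of 40 wall genes had more footprints with urea and 11 fewer, where 16.9% and 11.5% of all genes did (28.4% in all). In WT 3 had more and 6 fewer (4.73% and 4.48% of all genes, 9.21% together). CCW12 had 16346 and 22844 CPM in ∆ntd with urea, against 10574 and 8995 CPM in ∆ntd in SD (log2 change 1.0, standard error 0.17, adjusted p = 0.00671), and UTH1 had 1705 and 2306 CPM, against 1129.6 and 1038 CPM (log2 change 0.89, standard error 0.15, adjusted p = 0.00571). CCW14 and SCW4 were the other 2 that rose, by 0.58 and 0.71 (adjusted p = 0.0474 and 0.00276). The CCW14 call was lost in 11 of 16 alternatives, among them RLE scaling, library totals and the filter of 10 counts in every library. The fit of the ∆ntd libraries alone and the replicate block lost it too. The rest left out 1 culture of any group but ∆ntd with urea. The CCW14 change ran from 0.12 to 0.87 over all alternatives, and from 0.23 to 0.87 with 1 culture left out. The largest falls in ∆ntd were those of GSC2, at 96.4 and 90.1 CPM with urea, against 319.9 and 304 CPM in SD (log2 change -1.74, standard error 0.10, adjusted p = 4.95e-05), and CHS1, at 51.1 and 35.8 CPM, against 115 and 109 CPM (log2 change -1.35, standard error 0.16, adjusted p = 0.00139). YGP1 and TIP1 changed by -1.14 and -0.84 (adjusted p = 0.000648 and 0.00194).

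In WT the largest footprint falls with urea were those of PIR3, GSC2 and YGP1. PIR3 had 19.8 and 16.5 CPM in WT with urea, against 66.0 and 74.6 CPM in WT in SD (log2 change -1.94, standard error 0.20, adjusted p = 0.000925). GSC2 had 114 and 106 CPM, against 347 and 354 CPM (log2 change -1.68, standard error 0.10, adjusted p = 5.58e-05), and YGP1 had 388 and 393 CPM, against 639 and 671 CPM (log2 change -0.74, standard error 0.11, adjusted p = 0.00565). CRH1, a second chitin-glucan transglycosylase, had 505 and 539.5 CPM, against 685 and 704 CPM (log2 change -0.41, standard error 0.10, adjusted p = 0.0462). UTR2 rose to 396 and 383 CPM, against 189 and 194 CPM (log2 change 1.03, standard error 0.10, adjusted p = 0.00092), the direction of its RNA, and TIR1 rose to 4.95 and 6.93 CPM, against 1.36 and 1.90 CPM (log2 change 1.83, standard error 0.46, adjusted p = 0.046), on 24 and 21 footprints, against 25 and 30 in the larger SD libraries. TIR2, a relative of TIR1, had 1 to 3 footprints in each urea library of either strain, against 13 and 12 in ∆ntd in SD and 30 and 31 in WT in SD, and passed no test. Fits of the libraries of 1 strain alone gave 6 higher and 16 lower wall genes in WT and 4 lower in ∆ntd. Leaving out either culture of ∆ntd with urea gave 7 higher and 17 lower in WT and 26 or 28 calls in ∆ntd, leaving out either culture of ∆ntd in SD gave 4 calls in WT and 6 in ∆ntd, and leaving out a WT culture gave 3 or 4 calls in WT. By library totals, which moved the median of all genes by -0.43 in ∆ntd and -0.12 in WT, 3 wall genes had more footprints and 23 fewer in ∆ntd (6.05% and 39.3% of all genes), and 1 more and 7 fewer in WT (2.84% and 6.07%).

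Some near relatives changed in opposite directions. FKS1 and GSC2 both lost TE in ∆ntd with urea (-1.15 and -0.80), but FKS1 RNA was lower in ∆ntd (-0.36, adjusted p = 4.79e-06) where GSC2 RNA was higher. Of the chitin synthases, CHS1 lost TE (-1.68), while CHS2, which makes the primary septum, and CHS3, which makes most of the chitin of the lateral wall, had TE changes that did not pass (adjusted p = 0.615 and 0.251). CHS2 had fewer footprints in ∆ntd with urea, 91.1 and 88.1 CPM, against 144 and 134 CPM in WT with urea (log2 change -0.63, standard error 0.10, adjusted p = 0.00301), and less RNA (-0.52, adjusted p = 7.19e-05). SCW4 and SCW10, near relatives, went apart in footprints with urea, by 1.02 and -0.95 (adjusted p = 0.00036 and 0.000648). Of the glucanosyltransferases, GAS5 gained footprints (0.48, adjusted p = 0.00956) and GAS3 lost them, at 90.4 and 103 CPM in ∆ntd with urea, against 187 and 181 CPM in WT with urea (log2 change -0.93, standard error 0.10, adjusted p = 0.000662). GAS1 footprints were 1439.6 and 1992 CPM in ∆ntd with urea, against 1831 and 1811 CPM in WT with urea, and passed no test in Riboseq. KRE6, which acts in β-1,6-glucan synthesis in the Golgi, had 344 and 228 footprint CPM in ∆ntd with urea, against 345 and 303 CPM in WT with urea, and neither it nor its relative SKN1 nor KRE9 passed in Riboseq or TE in any comparison. Of the 4 Pir genes PIR3 alone passed in footprints between ∆ntd and WT with urea. CIS3 lost footprints with urea in ∆ntd (-0.56, adjusted p = 0.0113), and HSP150 had 5203 and 2707 footprint CPM in ∆ntd with urea, against 3289.7 and 3672 CPM in WT with urea, its ∆ntd cultures lying on either side of WT.

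Shorter wall genes had the higher TE changes of ∆ntd over WT in urea. Across the 39 wall genes the log2 change in TE of ∆ntd over WT in urea had a Pearson's r of -0.571 and a Spearman's rho of -0.6 with coding length. Within the 21 enzymes these were -0.648 and -0.694, within the 16 mannoproteins -0.232 and -0.365, and over 5239 genes -0.252 and -0.288. Genes are not independent replicates, and all points come from the same 8 libraries of the urea cultures, so these are descriptions. Of 12 wall genes under 1000 nt, 6 were higher in TE and none lower, with a median of 0.61. Of all genes of that length 21.6% were higher and 3.65% lower, with a median of 0.23. Of the 20 genes of 1000 to 2000 nt, 5 were higher and 2 lower, with a median of 0.19, where 15.3% of all genes of that length were higher and 9.46% lower, with a median of 0.05. Of the 7 genes over 2000 nt none were higher and 3 were lower (FKS1, GSC2 and CHS1), with a median of -0.32. Of all genes over that length 5.6% were higher and 21% lower, with a median of -0.18. SCW10 and EXG2, at 1170 and 1689 nt, were lower without being long, and SCW4 has nearly the length of SCW10, 1161 nt. Without urea the correlations over the 39 genes were -0.2 and -0.182, and over 5239 genes -0.014 and -0.03. For urea over SD in WT they were 0.211 and 0.382 over the 39 genes, and 0.324 and 0.399 over 5239 genes. For urea over SD in ∆ntd they were -0.368 and -0.453, and -0.082 and -0.099. Over all genes the relation was thus stronger in WT, where longer genes had the higher TE changes. With footprint level in WT in SD, the ∆ntd over WT change in urea correlated at 0.315 and 0.405, and 0.292 and 0.236.

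**Figure D5:**
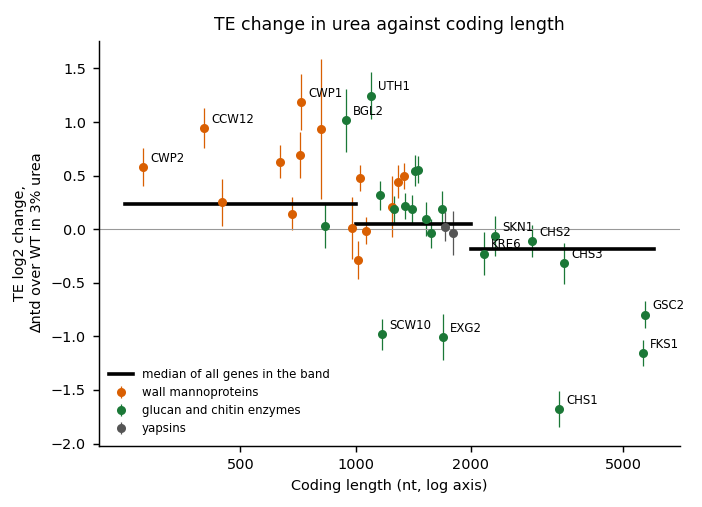
TE log2 change of ∆ntd over WT in 3% urea (vertical axis) against coding length in nt (horizontal log axis) for 38 wall genes, coloured by class, with standard errors as bars and the median of all tested genes in 3 length bands as black lines. The wall genes over 2000 nt all lie below zero, with FKS1 at -1.15 and CHS1 at -1.68, and the black lines step down at 0.23, 0.05 and -0.18. TIR2 is left out.

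Tested as a difference between the urea responses of ∆ntd and WT, 14 wall mRNAs passed, 7 in each direction, where 4.37% of all genes were positive and 6.07% negative (10.4% in all). The largest were those of PIR3 (log2 change 1.41, standard error 0.25, adjusted p = 0.000183), CWP1 (log2 change -0.92, standard error 0.15, adjusted p = 4.14e-05) and SPI1 (log2 change 0.75, standard error 0.21, adjusted p = 0.0213). In Riboseq 4 were positive (CCW12, PIR3, CWP2 and SCW4) and 4 negative (CHS1, FKS1, UTR2 and CHS2), where 4.92% and 3.44% of all genes were (8.36% in all), and by library totals, which moved the median of all genes by -0.32, 1 was positive and 7 negative (2.08% and 7.68% of all genes). In TE FKS1 was the 1 wall gene that passed, at -0.83 (standard error 0.17, adjusted p = 0.0462), where 0.267% of all genes were positive and 0.343% negative (0.609% in all). That call was lost with a term for each culture (adjusted p = 0.0931), with RLE scaling (adjusted p = 0.0506) and without any 1 culture other than those of ∆ntd with urea (adjusted p from 0.2 to 0.343). Without ∆ntd urea replicate 1 or 2, 13 and 10 wall genes passed in TE and 26 and 23 in Riboseq, and without any other culture none did in either. Without WT SD replicate 1 the RNAseq count was 8. CCW12, CCW14 and CHS1 had TE differences of 0.99, 1.12 and -1.02, larger than that of FKS1 and with adjusted p of 0.0976, 0.0976 and 0.0591.

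Other genes of wall assembly were counted from 4 lists, on the TMM scale where not stated otherwise. Of 7 septum and daughter-cell genes, which cut the septum after division or control that step, 6 had more RNA in ∆ntd than in WT with urea and 5 without, with none lower, where 21.5% and 17.5% of all genes were higher. By library totals 6 were higher in each medium, where 50.3% and 46.5% of all genes were. The chitinase CTS1 differed by 0.84 (standard error 0.07, adjusted p = 2.56e-12) with urea and 0.56 (standard error 0.07, adjusted p = 2.87e-08) without, and the glucanase SCW11 by 0.90 (standard error 0.10, adjusted p = 3.31e-09) and 0.68 (standard error 0.09, adjusted p = 6.71e-07). No TE of the 7 was higher and 3 were lower in ∆ntd with urea (DSE4, EGT2 and SCW11), where 15.3% of all genes were higher and 10.1% lower (25.4% in all). Of 11 genes of glucan assembly 1 was higher in TE in ∆ntd with urea and 3 lower. RHO1, the GTPase that activates glucan synthase, rose in TE by 0.83 (standard error 0.12, adjusted p = 0.000344), and KRE5, an ER gene of β-1,6-glucan synthesis, changed by -1.03 (standard error 0.15, adjusted p = 0.00026), with CWH41 and ROT2, the ER glucosidases, at -0.39 and -0.40 (adjusted p = 0.0457 and 0.0254). Of 11 genes that serve chitin synthases 1 was higher and 1 lower, namely GNA1, an enzyme of the precursor pathway, at 1.06 (standard error 0.29, adjusted p = 0.0167), and SKT5, the activator of CHS3, at -0.76 (standard error 0.15, adjusted p = 0.00247). Of 13 other GPI, yapsin and Pir genes in the table, 10 were tested and 2 were higher in TE, DFG5 and the phospholipase PLB1, at 1.20 and 0.69 (adjusted p = 0.0185 and 0.0168). The 2 calls of the 11 chitin synthase partners and the 2 of the 10 GPI, yapsin and Pir genes are below the share of all genes called in TE. By library totals none of the 4 lists had a gene with higher TE in ∆ntd with urea, and 7 of 7 septum genes, 6 of 11 glucan genes, 8 of 11 chitin synthase partners and 3 of 10 GPI, yapsin and Pir genes were lower, where 40.5% of all genes were.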

How the data were processed

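The authors mapped trimmed reads with Bowtie to the S288C transcriptome (R64.2.1, sacCer3 per the labels), kept uniquely mapped reads and deposited gene counts of Riboseq and RNAseq libraries. The same table holds their own log2 fold changes, p-values and FDR, which were not used. The submitters' processing notes name Bowtie 0.1.3 and 1.1, cutadapt 1.1 and DESeq2. The deposited counts were tested with edgeR 4.0.16 (glmQLFit, TMM scaling) in R 4.3.3, separately for RNAseq (5486 genes after filterByExpr), Riboseq (5286) and TE (5251 genes passing both, as the interaction of assay with the contrast), each on all 8 cultures. The libraries of a culture come from 1 extract, but the main TE fit had no term for the culture. Deviations of the Riboseq and RNAseq libraries of a culture had correlations of -0.026 to 0.03. Replicate numbers were not used to pair cultures, since deviations of same-numbered libraries within an assay had correlations of -0.308 to 0.055. Members and lists were chosen with earlier results of these data known. Values of every culture are given for up to 2 called rises and 2 called falls of each class per comparison, the largest among genes whose groups do not overlap, for the 3 most abundant genes of each class and for calls of the strain difference, beside near relatives. Alternatives were DESeq2 1.42.0, RLE size factors, library totals, no filter, a filter of 10 counts in every library, only the groups compared, limma 3.58.1 voom with a variance for each group, a culture or replicate block, and each culture left out in turn. The fits were tested on simulated counts with changes planted in Riboseq or in RNAseq: the fitted sizes matched the planted ones, and the TE test missed many changes, most of the smaller ones included. All simulated libraries of an assay had the same spread. The wider scatter between the real Riboseq libraries of ∆ntd with urea was therefore not covered by the simulation. Counting noise sets the precision of genes with few counts. Sequences and gene positions were read from the RefSeq R64 genome.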

Additional observations from a re-analysis of the deposited data

Results flagged for a closer look

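The urea response (3% urea over SD) of 23 gene and assay pairs differed between ∆ntd and WT by the interaction term of edgeR's fit, at an adjusted p under 0.05. Values are the log2 change in ∆ntd minus that in WT. In RNAseq the positive differences among mannoproteins were 1.41 for PIR3, 0.75 for SPI1, 0.42 for CCW12, 0.38 for CWP2 and 0.27 for HSP150, and among enzymes 0.59 for GSC2 and 0.45 for SCW4. The negative ones among mannoproteins were -0.92 for CWP1, -0.65 for TIP1, -0.57 for YGP1 and -0.37 for PIR1, and among enzymes -0.58 for UTR2, -0.48 for EXG2 and -0.42 for GAS3.

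HSP150 RNA stood at 1146 and 1329 CPM in ∆ntd with urea and 1256 and 1194 CPM in ∆ntd in SD, against 1253 and 1266 CPM in WT with urea and 1532 and 1489 CPM in WT in SD. PIR1 RNA stood at 162 and 171 CPM in ∆ntd with urea and 227 and 234 CPM in ∆ntd in SD, against 236 and 262 CPM in WT with urea and 269 and 266 CPM in WT in SD. EXG2 RNA stood at 92.9 and 95.1 CPM in ∆ntd with urea and 123 and 108 CPM in ∆ntd in SD, against 150.0 and 147 CPM in WT with urea and 129 and 134 CPM in WT in SD.

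In Riboseq the positive differences were 1.41 for CCW12, 1.31 for PIR3, 0.83 for CWP2 and 0.68 for SCW4, and the negative ones -1.0 for CHS1, -0.92 for FKS1, -0.76 for UTR2 and -0.71 for CHS2. CHS2 footprints stood at 91.1 and 88.1 CPM in ∆ntd with urea and 144 and 129 CPM in ∆ntd in SD, against 144 and 134 CPM in WT with urea and 129 and 129.8 CPM in WT in SD. In TE the difference for FKS1 was -0.83. None of these 9 Riboseq and TE differences was called when any 1 culture other than those of ∆ntd with urea was left out.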

How the results depend on the processing

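Counts of wall genes called moved by over 1.5 times as follows. With only the groups compared, footprint calls were 14 (main 22) for ∆ntd over WT with urea, 24 (8) without urea, 4 (15) for urea over SD in ∆ntd and 22 (9) in WT, and TE calls 8 (16), 12 (4), 0 (12) and 7 (0) in the same order. With a variance for each group, footprint calls without urea were 22 and in WT 21, and TE calls without urea were 11, in WT 5 and for the strain difference 6 (1). DESeq2 gave 8 (14) for the RNAseq strain difference, 1 for TE in WT and 5 for the TE strain difference. Library totals gave 26 footprint calls in ∆ntd and 3 for the TE strain difference, and RLE scaling gave 0 for it. The replicate block gave 2 (8) for the footprint strain difference and 0 (1) for that of TE, and moved no other count by over 1.5 times.

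Leaving out 1 culture gave 26 to 28 RNAseq calls for ∆ntd over WT with urea, 19 to 27 without, 22 to 28 in ∆ntd, 24 to 32 in WT and 8 to 13 for the strain difference. The ranges for footprints were 15 to 30, 1 to 24, 6 to 28, 3 to 24 and 0 to 26, and for TE 7 to 21, 0 to 12, 0 to 23, 0 to 8 and 0 to 13. Where this left 1 culture in a group, that culture was assumed to vary like the others. Of 2289 comparisons of 145 results with an alternative, 1914 kept direction and call, 349 lost the call, 21 gained it and 5 changed sign. By library totals TE in urea was -0.04 for GAS5, -0.12 for PIR1, -0.09 for PST1 and -0.05 for SIM1, and the CWP1 footprint change in urea, uncalled in the main analysis, ran from -0.57 to 0.18 with 1 culture left out. The causes were not tested. All alternatives were run, except that the strain difference needs all 4 groups. Few counts limit the precision of TIR1, TIR2, TIR3 and the flocculins.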
